A study of Mus musculus with 4 samples.

Results

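The genes described here were 42 genes of DNA replication and mitosis, whose transcripts mark cells that are copying or dividing their genome. They were chosen by symbol from a fixed list, and all 42 were found among the 32285 genes counted in each library. According to their known roles, 19 were replication genes, active from late G1 through S phase, and 23 were mitosis genes, active in G2 and M phase. They were followed across cell classes, across the phases of the cell cycle and between control and *Chd8* mutant cells.

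Before a cell copies its DNA, Cdc6 and Cdt1 load the Mcm2 to Mcm7 helicase at origins. Cyclin E then drives the start of S phase, PCNA clamps the polymerase to the template, and ribonucleotide reductase supplies the building blocks. After replication, Cdk1 with cyclins A and B drives entry into mitosis, the aurora and polo-like kinases build the spindle, and the anaphase-promoting complex with Cdc20 and Ube2c releases the chromosomes. E2F factors are known to switch on many replication genes, and the DREAM and MuvB complexes act on mitosis genes through a CHR element that is often paired with CCAAT boxes. In the perinatal forebrain, glial progenitors, OPCs (oligodendrocyte progenitor cells) and neuronal progenitors of the ventricular walls still divide, whereas neurons and mature oligodendrocytes do not.

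Single-cell RNA sequencing was performed on tdTomato-positive cells sorted from the telencephalon of P5 (postnatal day 5) mice on the C57BL/6 background. Control mice were NestinCreERT2/tdTomato/Chd8+/+, and mutant mice were NestinCreERT2/tdTomato/Chd8+/F, in which 1 *Chd8* allele carries loxP sites. All mice, controls included, carried the Cre and the reporter and received tamoxifen in utero at embryonic day 14.5, were delivered by cesarean section and were fostered. Cre was driven by Nestin regulatory sequences, so that labeling was directed to cells in a Nestin-expressing progenitor state at induction, and to their progeny. There were 2 libraries per genotype, each pooled from 3 mice, and the library was therefore taken as the replicate. Differences among mice cannot be separated within a library, and the p-values given measure the spread between these libraries. The study asked whether midfetal *Chd8* mutation changes the proliferation and differentiation of ventral progenitor cells, a question to which the levels of these genes are relevant.

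After filtering, 17623 cells were kept, from 2973 to 5710 per library, with median depths of 11500 to 11840 UMIs (unique molecular identifiers, each marking 1 captured transcript molecule). Although the cells were labeled as neuronal, they included 5488 cells of the astrocyte lineage and 2975 OPCs, and also 569 mural cells and 269 microglia, which do not arise from neural progenitors. The libraries of replicate 2 stood apart from those of replicate 1 in both genotypes. *Xist*, which is transcribed from the inactive X chromosome of female cells, was at 1633 (control) and 1749 CPM (mutant; counts-per-million UMIs) in replicate 2 but at 0.149 and 0.153 CPM in replicate 1. The study states that its single-cell samples came from male mice, with which the *Xist* levels of replicate 2 are at odds. The median mitochondrial share of counts was 4.86 to 5.64% in replicate 2 and 2.18 to 2.60% in replicate 1, and the headers of the files named Cell Ranger 5.0.1 for replicate 2 and 7.0.0 for replicate 1. The genotypes were balanced over the replicates, but sex, software and preparation cannot be told apart. *Chd8* itself (GRCm38, chr14:52198151-52257780, minus strand) was at 61.7 and 89.8 CPM in the controls and at 68.7 and 94.9 CPM in the mutants. The assay counts the 3′ ends of transcripts, so that these levels do not check the deletion of the floxed exons. Between 8 and 21 cell barcodes were shared by any pair of libraries.

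A shared sequence feature set the mitosis genes apart from the replication genes. RefSeq promoters (GRCm38.p6, from 250 bases before to 50 bases after the start site) were matched for 35 of the 42 genes. The CHR element (TTTGAA, or the variant TTCGAA, on either strand) was present in 15 of 19 mitosis genes with a promoter (78.9%) and in 2 of 16 replication genes (12.5%), against 21.7% of all 27025 genes. The E2F letters (the motif GCGGGAA, the motif GCGCGAA or the motif GCGCCAA, on either strand) showed the reverse, with 10 of 16 replication genes (62.5%), 4 of 19 mitosis genes (21.1%) and 9.20% of all genes. The CCAAT box (CCAAT, either strand) was present in 17 of 19 mitosis genes (89.5%), 10 of 16 replication genes (62.5%) and 41.1% of all genes. E2F letters on opposite strands can overlap each other, as in *Mcm6*, and GCGCCAA can overlap CCAAT. A letter match does not show that a factor binds there.

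The promoters of 3 mitosis genes and 2 replication genes are shown because these genes carry the contrasts described next. Each runs over the 250 bases before the start site, on the strand of the gene. In the first 3, capitals mark CHR and CCAAT letters, and in the last 2, capitals mark E2F letters.
*Cdk1* promoter, chr10:69352913-69353162, minus strand: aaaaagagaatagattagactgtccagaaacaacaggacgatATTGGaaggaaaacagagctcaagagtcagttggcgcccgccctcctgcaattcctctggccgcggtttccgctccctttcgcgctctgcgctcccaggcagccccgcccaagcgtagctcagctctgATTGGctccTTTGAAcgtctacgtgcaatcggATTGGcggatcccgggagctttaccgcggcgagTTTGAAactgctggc
*Top2a* promoter, chr11:99024190-99024439, minus strand: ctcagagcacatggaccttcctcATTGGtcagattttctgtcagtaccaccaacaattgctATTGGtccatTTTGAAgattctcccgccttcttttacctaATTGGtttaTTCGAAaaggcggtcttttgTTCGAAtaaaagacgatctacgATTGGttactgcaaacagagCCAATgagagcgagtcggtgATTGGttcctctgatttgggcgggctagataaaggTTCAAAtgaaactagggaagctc
*Mki67* promoter, chr7:135716380-135716629, minus strand: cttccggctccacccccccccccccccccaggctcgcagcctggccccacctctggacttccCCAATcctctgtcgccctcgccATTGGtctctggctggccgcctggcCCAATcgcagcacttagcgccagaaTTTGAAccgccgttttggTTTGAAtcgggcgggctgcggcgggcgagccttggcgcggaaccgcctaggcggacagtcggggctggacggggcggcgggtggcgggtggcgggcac
*Mcm5* promoter, chr8:75109259-75109508, plus strand: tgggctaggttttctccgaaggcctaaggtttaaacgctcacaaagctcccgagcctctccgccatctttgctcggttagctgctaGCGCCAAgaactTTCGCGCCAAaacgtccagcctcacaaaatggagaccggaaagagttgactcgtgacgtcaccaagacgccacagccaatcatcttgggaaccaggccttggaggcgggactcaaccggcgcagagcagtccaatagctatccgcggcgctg
*Mcm6* promoter, chr1:128359706-128359955, minus strand: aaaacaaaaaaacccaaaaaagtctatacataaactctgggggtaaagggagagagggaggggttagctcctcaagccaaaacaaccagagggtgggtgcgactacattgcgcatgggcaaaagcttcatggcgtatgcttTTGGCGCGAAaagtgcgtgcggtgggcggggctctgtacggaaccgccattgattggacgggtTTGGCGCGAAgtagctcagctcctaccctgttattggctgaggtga

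*Cdk1* (GRCm38, chr10:69335146-69352938), *Top2a* (chr11:98992943-99024189) and *Mki67* (chr7:135689784-135716361) all lie on the minus strand. All 3 promoters held CHR and CCAAT letters, and those of *Cdk1* and *Mki67* held E2F letters as well, but the levels of these genes parted in ependymal cells. Among the other mitosis genes that were low there, *Nusap1* held none of these letters and *Ccna2* had no matched promoter. A relation between the letters and the ependymal levels was not tested. *Mcm5* held E2F letters at bases -164, -152 and -149, and *Mcm6* held them at -109, -106, -46 and -43.

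Averaged over all cells of each class, the replication and mitosis genes were highest in a class of 1038 cells that carried *Egfr*. This gene encodes a growth factor receptor of activated progenitors. The class was 1 cluster, whereas the neuron, OPC and astrocyte lineages each pooled clusters with high and low levels. The ranking of classes is therefore not a ranking of their dividing cells. *Egfr* was at 950, 570, 843 and 353 CPM in control replicates 1 and 2 and mutant replicates 1 and 2, respectively, the order used throughout. The class scored nearly equally for astrocyte and OPC markers and is called the *Egfr* progenitors after a leading gene. Of the 42 genes, 31 had their highest mean level in these progenitors, 7 in OPCs, 3 in the inhibitory neuron lineage and 1, *Ccnb2*, in mural cells. For 34 of the 42, however, the libraries of the highest class overlapped those of the second. The lowest level was in oligodendrocytes for 32 genes and in ependymal cells for 10, among the 9 classes with enough counts to rank. The highest level exceeded that in oligodendrocytes by a median of 23.7-fold, with a range from 4.28-fold for *Ccne1* to 67.9-fold for *Cdc6*, which had 4 UMIs in oligodendrocytes. The median was 13.7-fold for replication genes and 28.2-fold for mitosis genes.

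Summed over the 19 replication genes, the level was 2320 ± 244 CPM (SD, n = 4 libraries) in the progenitors, 1724 ± 112 in the inhibitory neuron lineage, 1203 ± 167 in the excitatory neuron lineage and 1002 ± 214 in OPCs. The first pair of neighbors in this order did not overlap over libraries, nor did the second, whereas excitatory cells and OPCs overlapped. It was 598 ± 223 CPM in the astrocyte lineage, 270 ± 6.62 in ependymal cells and 204 ± 31.8 in oligodendrocytes. Summed over the 23 mitosis genes, the level was 3710 ± 735 CPM in the progenitors and 3597 ± 1425 in OPCs, which overlapped. It was 2901 ± 368 in the inhibitory lineage, 2351 ± 592 in the excitatory lineage, 1280 ± 567 in the astrocyte lineage, 847 ± 141 in ependymal cells and 161 ± 79.8 in oligodendrocytes. For mitosis genes the libraries of OPCs (2111 to 5056 CPM) also overlapped those of the inhibitory lineage (2528 to 3404 CPM), so that these 3 classes have no order. The ratio of replication to mitosis UMIs was 0.297, 0.261, 0.3997 and 0.234 in OPCs and 0.708, 0.528, 0.686 and 0.618 in the progenitors, and the libraries of these classes did not overlap. In dividing cells alone, as defined below, the mitosis genes were at 6457 ± 1662 CPM in OPCs. They were at 4851 ± 882 CPM in the progenitors, and the libraries overlapped. The replication genes were at 2933 ± 196 CPM in dividing progenitors and 2612 ± 77.5 in dividing inhibitory cells, also with overlap.

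**Figure D1:**
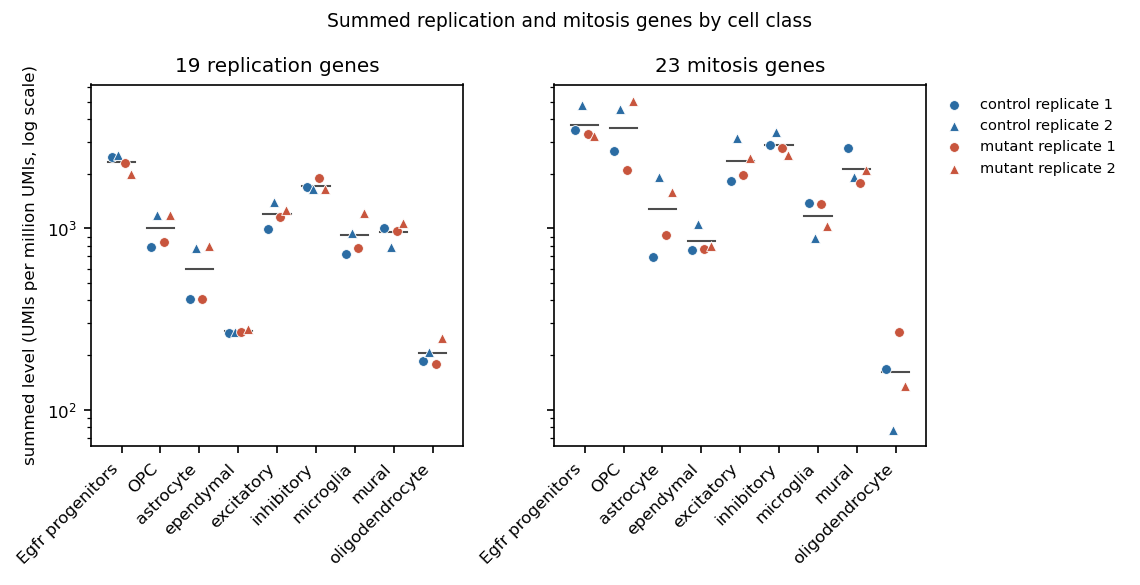
Summed level of the 19 replication genes (left) and the 23 mitosis genes (right) in CPM on a log axis, by cell class. Each point is 1 library (blue, control; red, mutant; circles, replicate 1; triangles, replicate 2) and each bar is the mean of 4 libraries. Over all cells of each class, dividing or not, the *Egfr* progenitors were highest and oligodendrocytes lowest for both groups. Their means were 2320 and 204 CPM for the replication genes.

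Among the replication genes, the licensing and firing group comprised 9 genes (*Mcm2* to *Mcm7*, *Cdc6*, *Cdt1* and *Gins2*), all highest in the progenitors. *Mcm7*, the member of this group with the most UMIs, was at 183, 189, 182 and 165 CPM in the progenitors and at 25.7, 23.2, 30.4 and 23.3 CPM in oligodendrocytes. All 4 progenitor libraries lay above all 4 oligodendrocyte libraries. *Mcm2*, another helicase subunit, was at 78.3, 81.1, 76.6 and 80.6 CPM in the progenitors and did not overlap its second class, the excitatory lineage, at a mean of 34.8 CPM. Among S phase cyclins, *Ccne1* was at 34.8, 33.0, 26.5 and 30.4 CPM in the progenitors against a mean of 18.4 CPM in the inhibitory lineage, again without overlap.

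In the nucleotide group, *Rrm2*, the regulatory subunit of ribonucleotide reductase, was at 246, 220, 239 and 223 CPM in the progenitors and 195, 189, 213 and 226 CPM in the inhibitory lineage, so that the classes overlapped. In the clamp and chromatin group, *Pcna* was at 400, 393, 403 and 305 CPM in the progenitors and 243, 233, 278 and 219 CPM in the inhibitory lineage, without overlap. *Uhrf1* and *Hells*, which maintain DNA methylation and chromatin at the fork, behaved like *Pcna*, with progenitor means of 121 and 107 CPM against 59.0 and 56.8 CPM in the inhibitory lineage. *Pclaf*, a PCNA-binding factor, was the exception. It was at 458, 430, 492 and 411 CPM in the inhibitory lineage and 435, 385, 411 and 300 CPM in the progenitors, and these ranges overlapped.

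Among the mitosis genes, *Top2a*, the topoisomerase that untangles sister chromatids, was at 484, 761, 455 and 387 CPM in the progenitors and 296, 623, 285 and 623 CPM in OPCs. *Cenpf*, a kinetochore protein, was at 282, 664, 195 and 706 CPM in OPCs and 266, 563, 264 and 395 CPM in the progenitors. For both genes the replicates differed more than the classes. *Cdk1*, the kinase that drives mitosis, was at 242, 177, 217 and 151 CPM in the progenitors and 131, 114, 101 and 170 CPM in OPCs.

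*Ube2c*, the ubiquitin-conjugating enzyme of the anaphase-promoting complex, had its highest mean in the inhibitory lineage, at 421, 280, 361 and 263 CPM, and was at 320, 316, 299 and 220 CPM in the progenitors. *Birc5* (survivin), a chromosomal passenger protein, was at 192, 192, 178 and 150 CPM in the progenitors and 192, 156, 181 and 137 CPM in the inhibitory lineage. Of the 23 mitosis genes, only *Ccna2*, cyclin A, had a highest class whose libraries did not overlap the second, with means of 135 CPM in the progenitors and 82.7 CPM in OPCs. The 2 most abundant genes of each process outside the list were also high in the progenitors. *Dut*, which removes dUTP, was at 405, 294, 371 and 222 CPM in the progenitors and 63.1, 47.7, 61.0 and 48.3 CPM in oligodendrocytes. *Dnajc9*, a histone chaperone, was at 214, 259, 191 and 193 CPM in the progenitors and 29.3, 39.2, 25.5 and 34.5 CPM in oligodendrocytes. *Cks2*, a Cdk1-binding protein, was at 282, 212, 274 and 175 CPM and at 20.5, 2.45, 15.7 and 7.76 CPM. *Prc1*, which bundles spindle microtubules, was at 205, 290, 171 and 144 CPM in the progenitors and 7.41, 6.12, 20 and 2.59 CPM in oligodendrocytes.

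Within lineages, the levels differed widely among clusters. In the inhibitory lineage, a cluster of 583 cells led by *Insm1*, *Dlx2* and *Gsx2* held 4048 CPM of replication genes and 5526 CPM of mitosis genes (all libraries pooled), the most of all 30 clusters. It drew 296 and 248 of its cells from replicate 1 and 24 and 15 from replicate 2. In the same lineage, a cluster of 954 cells led by *Prokr2* and *Adarb2* held 328 and 171 CPM. In the excitatory lineage, a cluster of 628 cells that carried *Eomes* held 1895 and 3810 CPM, and a cluster of 667 cells that carried *Neurod1* held 329 and 298 CPM. The 42 genes themselves were left out of the clustering. OPCs and astrocytes of the replicates fell largely into different clusters, with 417 and 582 cells of replicate 2 and 30 and 28 cells of replicate 1 in the largest OPC cluster, so that a difference between replicates within these lineages can be a difference between clusters.

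The 42 genes then sorted by cell cycle phase. Dividing cells were defined by 3 or more UMIs of 92 cell cycle genes outside the list, after thinning each cell to 2000 UMIs, and were split by whether these outside genes leaned toward replication (3341 cells) or mitosis (2348 cells). Ependymal cells were not included. All 23 mitosis genes were higher in mitosis-leaning cells in all 4 libraries, and 16 of 19 replication genes were lower in all 4. At the mitotic end, *Cdc20* differed by 4.24, 4.08, 3.83 and 4.01 on the log2 scale, and *Ube2c* by 3.91, 3.69, 3.64 and 3.76. At the replication end, *Ung*, a uracil glycosylase that repairs newly copied DNA, differed by -2.90, -2.94, -3.08 and -3.04, and *Cdc6*, the licensing factor, by -2.43, -2.34, -2.42 and -2.02. The spread over libraries was small beside these differences, and no test was applied because the cells were divided by related genes.

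Within each group the genes graded. *Top2a* (mean log2 difference 2.06 ± 0.14, SD, n = 4 libraries), *Cdk1* (2.10 ± 0.08) and *Mki67* (2.39 ± 0.25) lay at the lower end of the mitosis genes, above *Aurkb* at 1.85 ± 0.14. *Cenpf* (3.71 ± 0.12) and *Ccnb1* (3.68 ± 0.26) lay at the upper end. Among the replication genes, the Mcm genes differed by means from -1.35 for *Mcm6* to -0.60 for *Mcm7*, and *Pcna* by -0.68 ± 0.16. *Tyms*, thymidylate synthase, was nearly even at -0.13 ± 0.07. *Rrm2* (0.18 ± 0.10), *Pclaf* (0.22 ± 0.11) and *Rrm1* (0.45 ± 0.16), although listed as replication genes, were higher in mitosis-leaning cells in all 4 libraries.

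**Figure D2:**
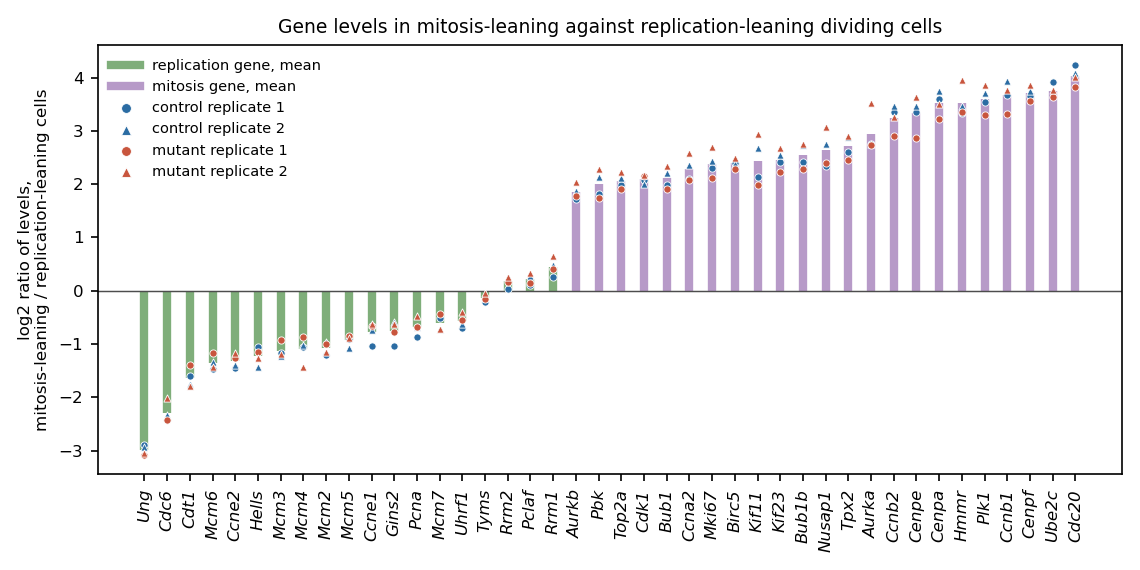
Level in mitosis-leaning over replication-leaning dividing cells, on a log2 scale, for each of the 42 genes in order. Bars are means of 4 libraries (green, replication genes; purple, mitosis genes) and points are libraries (blue, control; red, mutant; circles, replicate 1; triangles, replicate 2). *Ung* is lowest at a mean of -2.99 and *Cdc20* highest at 4.04, and only *Rrm2*, *Pclaf* and *Rrm1* of the replication genes lie above 0.

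Ependymal cells, which line the ventricles and bear many motile cilia, held mitosis genes at widely differing shares of their progenitor levels. They formed a pair of clusters. One, of 352 cells, was led by *Deup1*, whose product builds the deuterosomes on which multiciliated cells assemble centrioles, and is called the *Deup1* cluster here. The other, of 562 cells, was led by *Tmem212*. *Deup1* was at 590, 954, 675 and 639 CPM in the first and 52.2, 65.9, 52.1 and 48.6 CPM in the second. *Mcidas* and *Ccno*, regulators of centriole amplification, were at 84.1 to 134 and 134 to 277 CPM in the first and at 0 to 2.52 and 5.45 to 12.4 CPM in the second. *Foxj1*, the ciliogenesis factor, was high in both, at 774 to 1131 and 567 to 894 CPM.

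In the *Deup1* cluster, several mitosis genes reached the level of the *Egfr* progenitors. *Cdc20* was at 110, 101, 122 and 116% of its progenitor level, *Cdk1* at 76.2, 112, 86.6 and 129%, and *Top2a* at 72.9, 104, 76.8 and 122%. *Ccnb1*, *Aurka*, *Ccnb2* and *Plk1*, which are among the mitotic cyclins and kinases, had means of 85.3 ± 12.1, 79.5 ± 5.24, 76.6 ± 8.03 and 68.7 ± 16.5% (SD, n = 4 libraries). In the same cells, *Mki67*, the proliferation marker that coats mitotic chromosomes, was at 2.32, 3.55, 1.77 and 1.92% of its progenitor level, *Ccna2*, cyclin A, at 3.85, 1.83, 1.44 and 2.57%, and *Nusap1*, a spindle-binding protein, at 7.18, 2.99, 3.97 and 5.01%. These groups of genes did not overlap in any library. Of the 23 mitosis genes, 12 were above 25% in every library and 3, *Mki67*, *Ccna2* and *Nusap1*, were under 10% in every library.

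The replication genes were mostly low in the *Deup1* cluster, with a median of 10.6% of the progenitor level against 32.2% for the mitosis genes. Of 19, only *Cdt1* was above 25% in every library, at 29.4, 83.2, 48.2 and 54.8%, and 5 were under 10% in every library, among them *Mcm5* (2.02 ± 1.08%), *Mcm2* (5.92 ± 1.56%) and *Pclaf* (3.03 ± 0.74%). *Mcm6*, whose promoter held E2F letters as that of *Mcm5* did, was higher than *Mcm5*, at 27.5, 19.6, 33.25 and 67.7%.

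The contrast with the *Tmem212* cluster was as marked. In CPM, *Top2a* was at 353, 788, 350 and 470 in the *Deup1* cluster and 11.2, 36.5, 19.3 and 12.4 in the *Tmem212* cluster. *Cdk1* was at 184, 198, 188 and 195 against 8.64, 10.4, 7.28 and 7.02. *Mki67*, by comparison, was at 4.84, 22.1, 3.45 and 6.17 against 3.24, 15.3, 3.28 and 4.32. All 4 libraries of *Top2a* and of *Cdk1* thus rose many-fold between the clusters, whereas the ranges of *Mki67* overlapped. Of the 23 mitosis genes, 20 were higher in the *Deup1* cluster in all 4 libraries, and the exceptions were *Kif11*, *Nusap1* and *Ccna2*. Of the 19 replication genes, 9 were higher in all 4 libraries and 2 were lower. The share of all genes that were higher in this cluster is not given here, so these counts do not set the listed genes apart. Because the clusters were formed from these cells, no test was applied. With each cell thinned to 2000 UMIs, *Top2a* was found in 34.5, 62.5, 33.6 and 50.8% of cells of the *Deup1* cluster and in 2.63, 1.58, 2.63 and 3.82% of the *Tmem212* cluster. *Mki67* was found in 0.91, 2.78, 0.93 and 1.59% and in 0.66, 1.58, 1.32 and 0.76%, against 23.3, 37.9, 18.96 and 24.1% of the progenitors. Cells marked as doublets made up 0.91, 0, 0.93 and 0% of the *Deup1* cluster and 7.24, 0.79, 7.90 and 0% of the *Tmem212* cluster. The *Deup1* cluster had median depths of 19080 to 24500 UMIs against 13290 to 17920 in the *Tmem212* cluster. The pattern was present in all 4 libraries and thus in both genotypes.

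**Figure D3:**
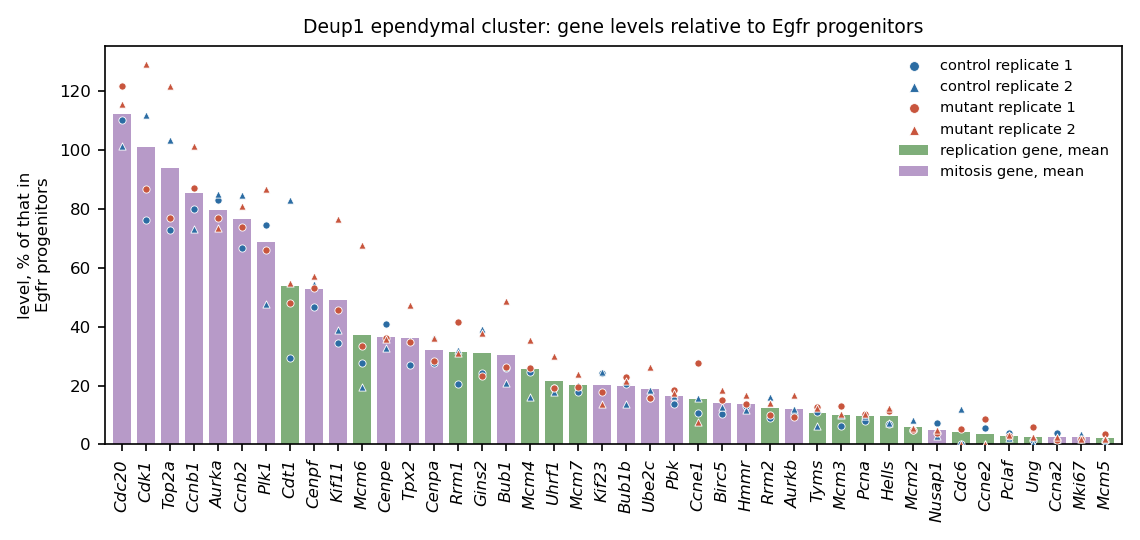
Level of each of the 42 genes in the *Deup1* ependymal cluster as a percentage of its level in the *Egfr* progenitors. Bars are means of 4 libraries (green, replication genes; purple, mitosis genes) and points are libraries (blue, control; red, mutant; circles, replicate 1; triangles, replicate 2). *Cdc20*, *Cdk1* and *Top2a* lie near 100% (means of 112, 101 and 93.7), whereas *Ccna2* and *Mki67* lie at 2.42 and 2.39%.

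Many of the genes also differed between replicates, in the same direction in both genotypes. Across 6 lineages with at least 20 dividing cells in every library (the progenitors, OPCs, the astrocyte lineage, ependymal cells and both neuron lineages), each genotype gave a replicate pair, 12 pairs in all. *Mki67* was higher in replicate 2 in 12 of 12 pairs, by a median of 1.64 on the log2 scale with a range of 0.60 to 2.59. *Cenpe*, *Cenpf*, *Hmmr*, *Plk1*, *Rrm1* and *Mcm5* were also higher in 12 of 12 pairs, with medians from 1.33 for *Cenpe* to 0.70 for *Mcm5*. *Ube2c*, *Birc5* and *Pclaf* were higher in 5, 5 and 6 of 12 pairs, with medians of -0.04, -0.01 and 0.02. The replicate difference was thus not shared by all genes of either group. Within a genotype, the pairs of all 6 lineages come from the same libraries, so the 12 pairs are not independent observations. Libraries of the same replicate number also deviated alike over genes at large, with correlations of 0.775 to 0.862 in the 6 lineages. Whether genes outside the list were higher in replicate 2 as often was not tested, so these counts do not set the listed genes apart. In OPCs, *Mki67* was at 176, 682, 170 and 582 CPM and *Ube2c* at 319, 299, 214 and 432 CPM. In the astrocyte lineage, *Mki67* was at 46.3, 278, 56.9 and 185 CPM. *Xist*, the mitochondrial share and the software version moved with the replicates, and their part in these differences was not tested.

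**Figure D4:**
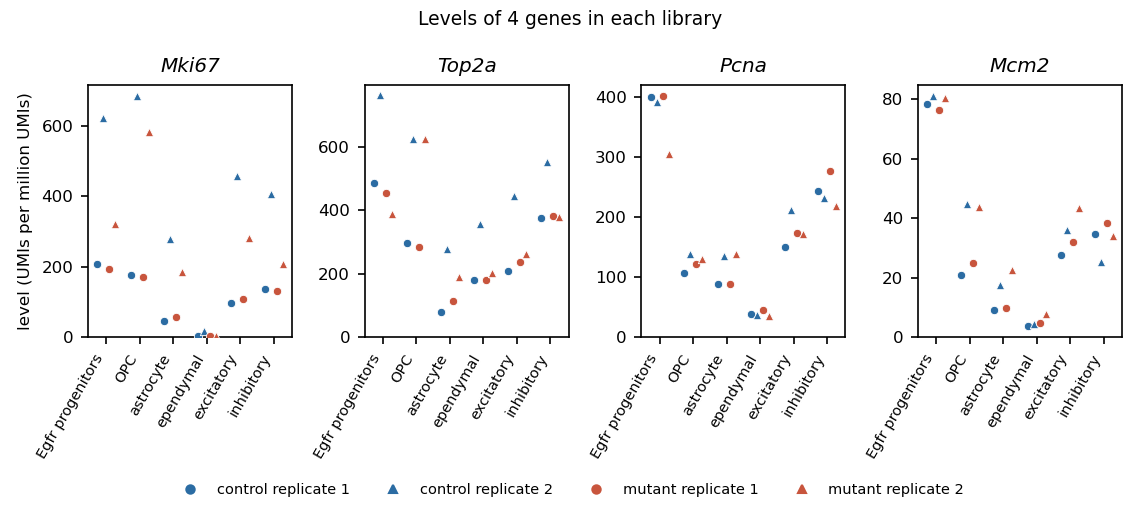
Level of *Mki67*, *Top2a*, *Pcna* and *Mcm2* in CPM in 6 lineages. Each point is 1 library (blue, control; red, mutant; circles, replicate 1; triangles, replicate 2) and each panel has its own axis from 0. *Mki67* is higher in replicate 2 in every lineage and genotype, as in OPCs at 682 against 176 in controls, whereas *Pcna* in the progenitors is lowest in mutant replicate 2 at 305.

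To ask whether *Chd8* mutation changed how many cells were dividing, the share of dividing cells was compared between genotypes. The share was 72.2% (exact binomial 95% interval, 66.9 to 77.1), 68.5% (61.9 to 74.6), 67.7% (61.7 to 73.2) and 58.7% (52.1 to 65.0) in the *Egfr* progenitors. Both mutant libraries lay below both control libraries, with a difference of -7.19 percentage points, which was -2.69 without mutant replicate 2. In the excitatory lineage the shares were 36.3, 37.8, 39.3 and 41.7%, and in the inhibitory lineage 48.95, 48.7, 53.8 and 51.95%, with both mutants above both controls and differences of 3.44 and 4.05 points. With 5 rather than 3 UMIs required of a dividing cell, these differences turned to -0.154 and -0.732 points. For each of these 3 lineages the two-sided exact permutation p was 0.333 (adjusted, 0.667), the smallest that the 6 assignments of 4 libraries can give.

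In OPCs the share of dividing cells was 39.97, 49.8, 37.3 and 53.2%, in the astrocyte lineage 20.04, 31.8, 23.7 and 32.9%, and in ependymal cells 51.2, 46.7, 56.0 and 44.3%. Here the replicates differed more than the genotypes, and the differences of 0.39, 2.38 and 1.22 points had exact permutation p-values of 1, 0.667 and 1 (adjusted, 1 in all 3). Leaving out 1 library turned each of these differences, which ranged from -7.56 to 8.35, -3.49 to 8.26 and -4.61 to 7.05 points. In oligodendrocytes, which do not divide, the share was 6.79, 4.55, 7.22 and 8.33% at median depths of 17500 to 19010 UMIs, and gives a background of the definition in that class. The background was higher in ependymal cells. Of the ciliated *Tmem212* cluster, 37.5, 29.9, 42.1 and 30.5% of cells met the definition, although no more than 1.32% held 3 UMIs of the 23 mitosis genes, so that the ependymal share is not read as a share of cells in division. Intervals cover counting error alone. Among dividing cells, those with more mitosis than replication UMIs of the 42 genes made up 46.0, 54.0, 44.5 and 46.8% in the progenitors, 43.9, 46.7, 44.1 and 55.3% in OPCs and 35.2, 31.3, 33.3 and 32.5% in the inhibitory lineage. Dividing cells with no UMI of the 42 genes count in these shares and made up 21.3, 22.3, 21.5 and 25.6% in the inhibitory lineage against 3.097, 1.33, 3.30 and 3.597% in the progenitors, so that no order of phase is read from them.

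Levels per gene were then compared between genotypes in each lineage, with counts summed per library and the edgeR quasi-likelihood test fitted over all genes. In the *Egfr* progenitors, 0 of the 42 genes passed an adjusted p of 0.05 and 0 had an unadjusted p under 0.05. Of all 12532 genes tested there, 0 passed (0%), and 19 had an unadjusted p under 0.05. DESeq2 called 0 genes as well. Libraries of this design were simulated with a replicate difference shared by both genotypes. In them, the edgeR fit without a replicate block called none of the genes that had been changed. A count of 0 from this fit therefore does not show that levels were alike. The fitted changes nevertheless leaned in 1 direction, with 38 of the 42 genes lower in mutants at a median of -0.28 on the log2 scale, while the median of all genes was 0.00. Both mutant libraries lay below both controls for 20 of the 42 genes, and above them for 0. The shares of all genes with such a separation were 8.4 and 7.61%. Within replicates, 32 of the 42 genes were lower in the mutant in both, against 28.4% of all genes, and 0 were higher in both, against 23.2%. Genes of the same processes outside the list also lay mostly below, with 39 of 40 replication and 49 of 52 mitosis genes lower at medians of -0.29 and -0.31. In this fit 0 of the 92 were called. In the edgeR fit with the replicate number as a block, 0 of the 40 and 1 of the 52 were called (0.343% of all genes). An unadjusted p under 0.05 was reached in the block fit by 12 of the 40 and 21 of the 52 (6.1% of all genes). These 92 genes also define the dividing cells. Genes of the cell cycle vary together, so counts of them, here and in the other lineages, are not independent observations. A sum over all cells does not tell fewer dividing cells from less RNA per dividing cell. In a fit on dividing cells alone, 34 of the 42 were lower with a median of -0.18, and 0 were called.

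The lean in the progenitors was larger in replicate 2. With each library left out in turn, the median ranged from -0.36 to -0.17. Summed over the mitosis genes, the log2 ratio of mutant to control was -0.06 in replicate 1 and -0.58 in replicate 2, and over the replication genes it was -0.11 and -0.35. The largest fitted changes were those of *Mki67*, *Bub1* and *Kif11*. *Mki67* was at 209, 622, 195 and 321 CPM (log2 change -0.69, SE 0.62, edgeR adjusted p = 1), *Bub1*, a checkpoint kinase, at 48.8, 78.0, 48.2 and 30.1 CPM (-0.68, SE 0.40, adjusted p = 1), and *Kif11*, the motor that separates spindle poles, at 143, 159, 117 and 74.6 CPM (-0.64, SE 0.31, adjusted p = 1). For *Bub1* and *Kif11* both mutants lay below both controls, whereas *Mki67* overlapped and its change was 0.34 without control replicate 2. *Uhrf1* (132, 140, 113 and 99.9 CPM) and *Cdc6* (20.2, 24.6, 14.8 and 14.9 CPM) separated in the same way, whereas *Mcm2*, at 78.3, 81.1, 76.6 and 80.6 CPM, overlapped.

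In the inhibitory neuron lineage the mitosis genes lay mostly lower in mutants, more so in replicate 2. Summed over the mitosis genes, the log2 ratio of mutant to control was -0.06 in replicate 1 and -0.43 in replicate 2. In dividing cells it was -0.15 and -0.47. Of the 23 mitosis genes, 22 were lower in mutants with a median of -0.18, whereas 13 of the 19 replication genes were higher with a median of 0.11. In dividing cells alone, all 23 mitosis genes had lower fitted values in mutants, with a median of -0.27, and the replication genes were divided, with 10 higher and 9 lower at a median of 0.04. Over all 42 genes, that fit had 32 lower and 10 higher at a median of -0.16. The lean was weaker when 5 UMIs were required of a dividing cell, with 27 lower and 15 higher at a median of -0.065. These counts over the 42 genes do not separate mitosis from replication genes. Among genes outside the list, 45 of 52 mitosis genes were lower over all cells (median -0.21) and 21 of 40 replication genes higher (median 0.02). At a mitochondrial limit of 5%, 38 of the 42 were lower. None of the 42 passed the edgeR test over all cells or over dividing cells at the original limits. None had an unadjusted p under 0.05 in these fits. Over all cells, 0 of 13979 genes (0%) passed, with 6 at an unadjusted p under 0.05. *Mki67* was at 136, 407, 132 and 207 CPM (log2 change -0.69, SE 0.59), *Hmmr*, a spindle assembly factor, at 49.1, 95.9, 43.5 and 54.3 CPM (-0.58, SE 0.40), and *Cdt1*, the licensing factor, at 24.5, 10.5, 29.7 and 22.96 CPM (0.54, SE 0.52), each with an adjusted p of 1. Both mutants lay below both controls for 4 of the 42 genes and above them for 4, against 5.67 and 7.36% of all genes. Within replicates, 15 of the 42 genes were lower in the mutant in both, against 24.4% of all genes. Another 12 were higher in both, against 25.1% of all genes. Without control replicate 2, the log2 change of *Mki67* was 0.30. With each library left out in turn, the median of all 42 genes ranged from -0.28 to 0.09.

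In the other 4 lineages, none of the genes passed the test, and over all cells neither direction prevailed throughout. In dividing cells alone, more genes were lower than higher in each of these lineages. In the excitatory lineage 32 were lower and 10 higher (median -0.16), and 25 and 17 (-0.03) when 5 UMIs were required. There were 28 and 14 in OPCs (-0.04), 25 and 17 in the astrocyte lineage (-0.08) and 27 and 9 of 36 in ependymal cells (-0.13). With each library left out in turn, the median took both signs in each of these lineages. With the replicate number as a block, 0 of the 42 were called in any of the 6 lineages, against 0.343% of all genes in the progenitors, 0.0145% in OPCs, 0.0191% in the astrocyte lineage, 0.0356% in ependymal cells and 0.00715% in the inhibitory lineage. An unadjusted p under 0.05 was reached in the block fit by 13 of 42 genes in the progenitors (6.1% of all genes), 0 in OPCs (2.72%), 2 in the astrocyte lineage (3.36%), 4 of 40 in ependymal cells (4.02%), 0 in the excitatory lineage (2.62%) and 7 in the inhibitory lineage (2.98%). In dividing cells the block called 0 of the 42 as well, against 0.0238% in OPCs, 0.141% in the astrocyte lineage, 0.0159% in ependymal cells and 0.0778% in the inhibitory lineage. There, an unadjusted p under 0.05 was reached by 6 genes in the progenitors (3.88%), 0 in OPCs (3.3%), 2 in the astrocyte lineage (4.42%), 3 of 36 in ependymal cells (3.22%), 1 in the excitatory lineage (3.43%) and 8 in the inhibitory lineage (2.79%). The labels do not say that the replicate numbers mark pairs. Over all cells and without the block, 24 were lower and 18 higher in OPCs (0 of 13835 genes called, 0%). In the astrocyte lineage they numbered 18 and 24 (0 of 15730, 0%), and in the excitatory lineage 28 and 14 (0 of 13185, 0%). In ependymal cells they numbered 25 and 15 of the 40 that passed the filter on low counts (0 of 14053, 0%). The genes with unadjusted p under 0.05 numbered 3, 9, 6 and 18 in these lineages, with 0 of the 42 among them. In OPCs, the largest changes were those of *Mcm4*, at 33.1, 69.3, 39.7 and 41.5 CPM (-0.33, SE 0.40), *Cdt1*, at 18.1, 13.02, 18.6 and 20.8 CPM (0.31, SE 0.30), and *Plk1*, at 23.8, 52.8, 17.8 and 77.5 CPM (0.28, SE 0.79). Control and mutant libraries overlapped for *Mcm4* and *Plk1*, and the mutants lay above the controls for *Cdt1*, the only member of the 42 to do so in OPCs (6.56% of all genes).

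In the excitatory lineage, *Cdc6* was at 8.88, 11.6, 6.35 and 7.34 CPM (-0.54, SE 0.43), with both mutants below both controls, as for 4 of the 42 genes (7.29% of all genes), and both mutants lay above both controls for another 4 (6.38%). *Mki67* (-0.49, SE 0.89) and *Hmmr* (-0.48, SE 0.61) overlapped there. In the astrocyte lineage, *Cdt1* was at 4.20, 6.57, 5.60 and 9.51 CPM (0.47, SE 0.46), *Mki67* at the levels given above (-0.44, SE 1.03) and *Hmmr* at 17.2, 65.0, 21.1 and 42.3 CPM (-0.39, SE 0.75), and 0 of the 42 separated in either direction (5.72 and 5.3% of all genes). In ependymal cells, where *Mki67*, *Mcm5* and *Kif23* had the largest changes, *Mki67* was at 4.03, 18.2, 3.36 and 5.08 CPM (-1.33, SE 0.84) and *Mcm5* at 0.55, 1.25, 2.80 and 2.86 CPM, and *Kif23*, a motor of cytokinesis, was at 12.3, 15.96, 9.33 and 5.08 CPM (-0.93, SE 0.45). *Mcm5* rested on 3 UMIs in control replicate 1, which is the limit of detection used here, and its fitted change is not given. Both mutants lay below both controls for 4 of the 38 genes with enough UMIs and above them for 5, against 6.78 and 8.89% of all genes.

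**Figure D5:**
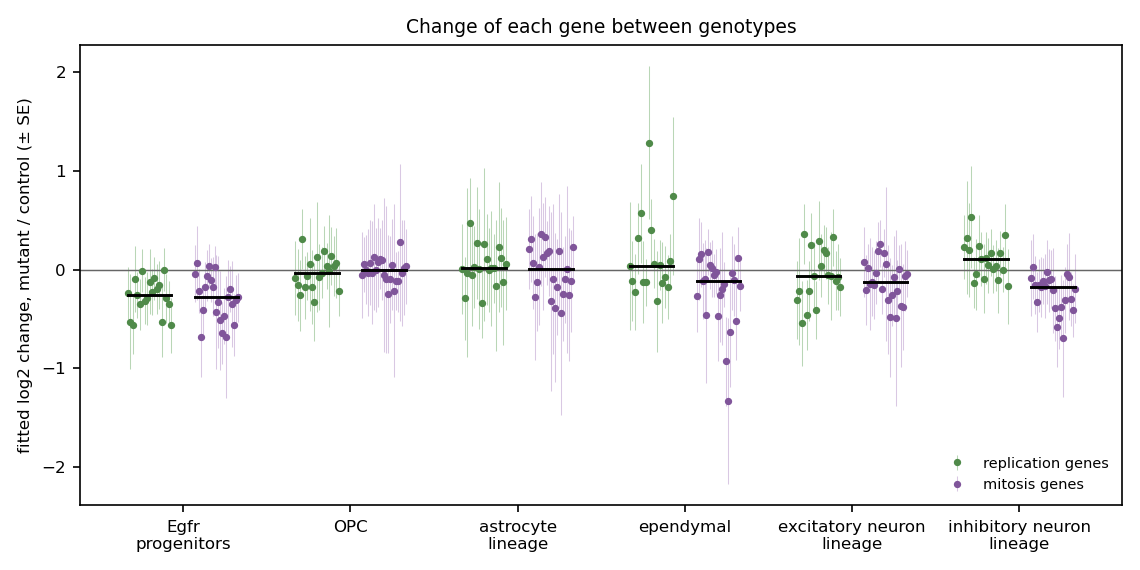
Fitted log2 change between mutant and control libraries for each gene in 6 lineages (green, replication genes; purple, mitosis genes). Points are fitted changes with their standard errors, and black bars are medians. In the *Egfr* progenitors 38 of 42 points lie below 0, and in the inhibitory lineage the mitosis genes have a median of -0.18 and the replication genes of 0.11, with none past the test.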

How the data were processed

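The 4 deposited libraries were analysed, 2 control and 2 mutant. The authors aligned the reads to mm10 with Cell Ranger (7.0.0 and 5.0.1 per the file headers) and deposited raw UMI counts per gene and barcode, not normalized. Barcodes were retained if they had between 2000 and 40000 UMIs, 1000 or more detected genes and a mitochondrial share of up to 10%. Cells were clustered with scanpy 1.11.5 (2000 variable genes, 30 components, resolution 1), and named from marker lists, with the naming rule set after the clusters were seen. Left out of the clustering were 759 genes, in overlapping sets. These were cell cycle genes, replication-dependent histone genes and 727 genes over a cell cycle correlation limit of 0.2. Not all leading genes of the *Egfr* progenitors are reported here. Scrublet marks were recorded and the cells kept. Levels are counts-per-million values (CPM), summed per library and class. Counts were summed per library and tested with edgeR 4.0.16 (limma 3.58.1; quasi-likelihood, TMM, Benjamini-Hochberg, adjusted p of 0.05). DESeq2 1.42.0, a replicate block, other filters and clusterings, and leaving out each library were alternatives. Scripts were tested on simulated data, in which a replicate difference shared by both genotypes was built in. There, the fit without the block made no calls. The block fit recovered 50 to 75% of the changed genes, with 3 to 10 false calls per lineage. Because the pairing was built in, this does not show that the block suits the real libraries. The 42 genes and all lists were chosen with earlier results of these data known. Values per library are given for the gene with the most UMIs in each role, *Mki67*, *Top2a*, *Mcm2* and *Pcna*, the 3 genes with the largest fitted change in each lineage and the 2 most abundant outside genes of each phase; other genes named were chosen after their values were seen. Dividing shares have exact binomial 95% intervals, which cover counting error alone. Total depth was 46274374 to 79328841 UMIs per library.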

Additional observations from a re-analysis of the deposited data

Results flagged for a closer look

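The differences listed here were picked by a rule. Both mutant libraries had to lie on the same side of both controls, with opposite signs in different lineages. The agreement over library pairs is thus set by the rule and is not a result. The differences between lineages were not tested, and none of those within a lineage passed a test. The summed level of the replication genes was higher in mutant ependymal cells by 0.0444 on the log2 scale and lower in the mutant *Egfr* progenitors, at -0.2295. In ependymal cells the separation rested on 269.3 CPM in mutant replicate 1 against 268.3 CPM in control replicate 2. The share of dividing cells was 3.439 percentage points higher in the mutant excitatory neuron lineage and 4.053 points higher in the mutant inhibitory neuron lineage, against a difference of -7.195 points in the *Egfr* progenitors. Each share had an exact permutation p of 0.333 (adjusted, 0.667). The difference in the progenitors was -2.69 points without mutant replicate 2, and those in the excitatory and inhibitory lineages were -0.154 and -0.732 points when 5 UMIs were required of a dividing cell. Groups of 2 libraries are too small for the range-based check of a single outlying library.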

How the results depend on the processing

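None of the 42 genes was called under any alternative run, with each library left out included. The *Egfr* class was not formed at resolution 2, with cell cycle genes in the clustering or at a mitochondrial limit of 5%, so its values are not given there. The difference in the share of dividing cells turned in OPCs at resolution 2 (-2.97 points), with cell cycle genes in the clustering (-1.16), at 2 UMIs (-0.286) and without thinning (-2.27). It turned in the astrocyte lineage without thinning (-2.60), in ependymal cells at 5 UMIs (-1.07), at 5% mitochondrial counts (-4.34) and without thinning (-0.717), and at 5 UMIs in the excitatory (-0.154) and inhibitory (-0.732) lineages. With libraries left out, it ranged from -7.56 to 8.35 in OPCs, -3.49 to 8.26 in the astrocyte lineage and -4.61 to 7.05 in ependymal cells. The share of mitosis-leaning cells moved to 42.9, 52.9, 38.6 and 43.0% in the *Egfr* progenitors at 2 UMIs, 5 UMIs, without thinning and at 4000 UMIs, to 31.2, 61.3, 25.7 and 30.9% in the astrocyte lineage and to 33.3, 57.7, 27.2 and 33.5% in the excitatory lineage. It moved to 40.03, 58.4 and 35.6% in OPCs at 2 UMIs, 5 UMIs and without thinning, and to 39.7% with cell cycle genes in the clustering. In the inhibitory lineage it was 27.1, 49.1, 24.3 and 27.9% under the same settings, 39.0% with cell cycle genes in the clustering and 39.1% at 5% mitochondrial counts. In ependymal cells it was 41.2, 74.7 and 57.8% at 2 UMIs, 5 UMIs and 5% mitochondrial counts. The summed replication level moved to 0.15 in ependymal cells without cells marked by Scrublet and to -0.0736 in the inhibitory lineage at 5% mitochondrial counts. Without a filter on low counts, 7 genes in ependymal and 14 in inhibitory dividing cells were called, none of the 42 among them. With libraries left out, *Mki67* ranged from -1.28 to 0.34 (progenitors), -1.51 to 1.37 (astrocyte lineage), -2.05 to 0.0591 (ependymal), -1.36 to 1.03 (excitatory) and -1.26 to 0.30 (inhibitory), *Hmmr* from -1.04 to 0.88 (astrocyte lineage) and -1.06 to 0.52 (excitatory), *Mcm4* in OPCs from -0.74 to 0.24 and *Plk1* in OPCs from -1.05 to 0.96. The median of the 42 genes ranged from -0.47 to 0.35 in OPCs, -0.43 to 0.67 in the astrocyte lineage and -0.37 to 0.27 in the excitatory lineage. The cause of these moves was not tested.

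The replicate numbers do not establish a pairing in the labels. Deviations of same-numbered libraries correlated at 0.775 to 0.862 over genes in the 6 lineages, with 2 pairs. With the replicate block, 43, 2, 3, 5, 0 and 1 genes were called in the progenitors, OPCs, the astrocyte lineage, ependymal cells and the excitatory and inhibitory lineages, and in dividing cells 3, 19, 2 and 10 in OPCs, the astrocyte lineage, ependymal cells and the inhibitory lineage, none of the 42 among them. *Kif11* in the progenitors came closest, at -0.66 (SE 0.17, edgeR adjusted p = 0.0541).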
